A study of Mus musculus with 14 samples.

Results

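The amino acid transporters described here are 10 genes whose products carry amino acids, or taurine, across the plasma membrane: Slc7a5, Slc3a2, Slc1a5, Slc38a1, Slc38a2, Slc7a1, Slc7a6, Slc7a11, Slc43a2 and Slc6a6. They were chosen by name from the 22255 genes of the table. All 10 were found, each in a single row. Foxp3 marks regulatory T cells (Tregs), which restrain immune responses, and the cells here were Foxp3-YFP+ cells of mice aged 8 weeks. Spleen (4 libraries), lymph node (LN, 4 libraries) and WT tumor (3 libraries) came from the strain FoxP3-YFPCre+/+, with genotype WT. KO tumor (3 libraries) came from the strain CD36floxed FoxP3-YFPCre+/-, labelled CD36 KO, so the tumor groups differ in the Cre allele count as well as in Cd36. All groups carry the FoxP3-YFPCre allele, which joins a yellow fluorescent protein and the Cre recombinase to the Foxp3 locus. The tumors were Yumm1.7, a mouse melanoma line. RNA of each sample was made into a Smart-Seq2 library, a method for small amounts of RNA, and levels are in FPKM, which scales fragments to transcript length and library depth, so levels may be set side by side between genes.

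T cells take up more amino acids when they are activated, since growth, protein synthesis and the kinase mTORC1 depend on them. Slc3a2 encodes CD98 heavy chain, which holds a light chain in the membrane by a disulfide bond. The light chain does the transport: Slc7a5 (LAT1) takes in leucine and other large neutral amino acids in exchange for glutamine, Slc7a6 exchanges cationic for neutral amino acids, and Slc7a11 (xCT) brings in cystine in exchange for glutamate. Slc1a5 (ASCT2) carries glutamine, Slc38a1 and Slc38a2 take up small neutral amino acids with sodium, Slc7a1 carries arginine and lysine, Slc43a2 carries large neutral amino acids without a partner, and Slc6a6 carries taurine. When amino acids run short, the kinase GCN2 raises the translation of the transcription factor ATF4, for which Slc7a11, Slc3a2, Slc7a5 and Slc38a2 are known targets.

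The C/EBP-ATF response element through which ATF4 acts has the core TGATGNAA. Of the 10 genes, 6 had promoter windows in the RefSeq table for GRCm38.p6 (9 windows of 300 bases, some genes with more than 1 start), and the core was sought on both strands in the 250 bases before the start. Among these 6 genes the core was found in Slc7a11 alone, with 2 matches, while 3.45% of 32851 windows of this length held it. A core outside these bases would be missed, so no match does not mean that a gene lacks the element. Of the 250 bases searched, 169 for Slc3a2 and all 250 in window 2 of Slc7a1 and of Slc43a2 lie in exons of the same gene. Slc7a5, Slc1a5, Slc38a1 and Slc6a6 had no window and were not searched. The Slc7a11 window (chr3:50443614-50443863, minus strand) is shown because it holds both matches, in capitals. The first, 66 to 59 bases before the start, reads TGATGCAA on the gene's strand, and the second, 47 to 40 bases before it, reads so on the other strand.
Slc7a11: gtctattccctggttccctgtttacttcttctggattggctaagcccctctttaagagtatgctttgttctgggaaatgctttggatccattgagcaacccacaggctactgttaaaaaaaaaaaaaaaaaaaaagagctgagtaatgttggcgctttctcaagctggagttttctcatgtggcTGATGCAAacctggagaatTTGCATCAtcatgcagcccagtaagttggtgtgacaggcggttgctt

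The core of the hypoxia response element, ACGTG, was present in 16.6% of the windows. Slc3a2 had 1 match, on the strand opposite to the gene, 164 to 160 bases before the RefSeq start. It is shown, in capitals, in the 30 bases around it (chr19:8714044-8714073, minus strand), which lie in an exon of longer Slc3a2 transcripts of GENCODE M21.
Slc3a2: tcaagacaaattCACGTttgttattctaag
Slc7a6 had an ACGTG in each of its 2 windows, and 1 of these overlaps a match to the antioxidant response core TGACNNNGC, which 10.2% of windows held and which Slc7a1 and Slc38a2 had as well. These are matches of letters and not measured binding.

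The libraries held about 10700000 to 21400000 reads, as read from the steps between low FPKM values, and listed 7469 to 8307 genes at 1 FPKM or more. All 7 Treg markers (Foxp3, Il2ra, Ctla4, Ikzf2, Tnfrsf18, Cd4 and Cd3e) reached 1 FPKM in all 14 libraries. Foxp3 was at 8.67 to 27.8 FPKM in spleen, 15.4 to 32.3 in LN, 3.54 to 12 in WT tumor and 25.7 to 42.4 in KO tumor. Cd36, the targeted gene, was listed at 0 in all WT tumor and LN libraries and in 2 of 3 KO tumor libraries, and at 1.06 FPKM in KO tumor 2, so it does not check the KO label. Spleen 1 to 4 had 0, 0.598, 4.47 and 2.17 FPKM of Cd36. Summed over 10 macrophage or monocyte markers, levels were 271 to 711 FPKM in spleen and 306 to 415 in KO tumor, but 4.04 to 36.1 in LN and 1.18 to 107 in WT tumor. Nothing in the labels says whether libraries of a group came from separate mice, so the p-values measure the spread between libraries, which may be technical.

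Slc3a2, Slc1a5 and Slc38a2 were the transporters with the highest levels in every group, and Slc7a11 had the lowest. Mean Slc3a2 ran from 42.7 FPKM in LN to 167 FPKM in KO tumor, Slc1a5 from 30.4 to 51.3 FPKM and Slc38a2 from 23.3 to 41.3 FPKM. Slc7a1, Slc7a6, Slc38a1, Slc43a2 and Slc6a6 had group means between 2.08 and 12.9 FPKM. Slc7a5 had means of 1.20 to 3.38 FPKM and was under 1 FPKM in 8 of 14 libraries, and Slc7a11 reached 1 FPKM in 1 library. The plot of each transporter by group shows the libraries behind these means.

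**Figure D1:**
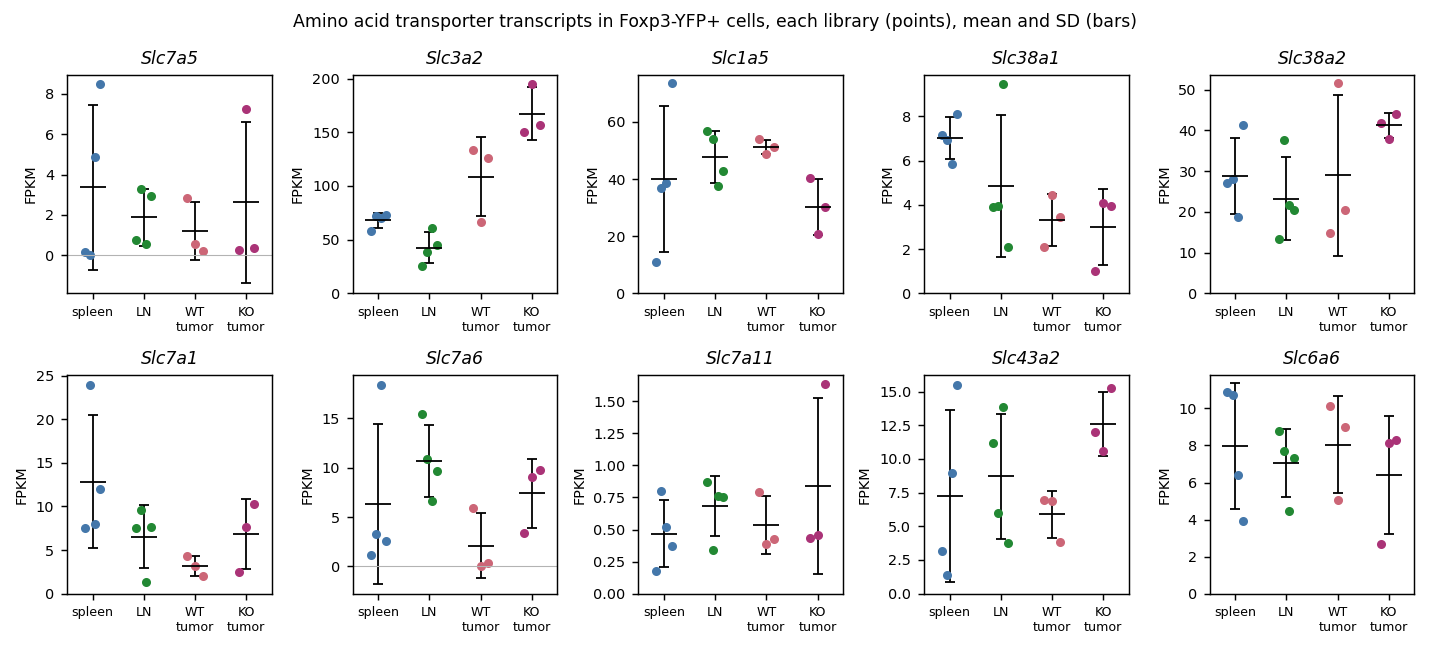
FPKM of the 10 transporters (vertical axis, its own range for each gene) in spleen, LN, WT tumor and KO tumor; points are libraries, and bars are the group mean and SD. Slc3a2 is highest in the 3 KO tumor libraries (150 to 195 FPKM). Its lowest group mean is that of LN (25.5 to 61.0 FPKM), whose libraries overlap those of spleen. All groups overlap for Slc7a5, Slc7a11 and Slc6a6, while each of the other genes has some pair of groups without overlap.

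A gene was tested where at least 3 libraries of a fit reached 1 FPKM, with robust limma-trend on log2(FPKM + 1), and adjusted p (Benjamini-Hochberg over all tested genes) of 0.05 was the threshold. Of the 10 transporters 9 could be tested in the comparisons with spleen or LN and 8 in KO tumor against WT tumor. Tissue, Cd36 genotype and Cre allele count differ together in KO tumor against spleen or LN, and cannot be told apart there. Over the 6 comparisons a single transporter passed in a single one: Slc3a2 was higher in KO tumor than in LN. Of all tested genes 3.42% passed in that comparison and, for the others, 1.90% passed in WT tumor against spleen, 3.04% in WT tumor against LN, 0.499% in LN against spleen, 0.280% in KO tumor against WT tumor and 2.80% in KO tumor against spleen. With 8 or 9 transporters tested, 1 call in the 6 comparisons is near these shares. Unadjusted p was under 0.05 for 1 transporter in WT tumor against spleen, 2 in WT tumor against LN, 1 in each of KO tumor against spleen and against LN, and 0 in the other two. The share of all tested genes under this unadjusted cut is not given here, so these counts cannot be compared with it.

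**Figure D2:**
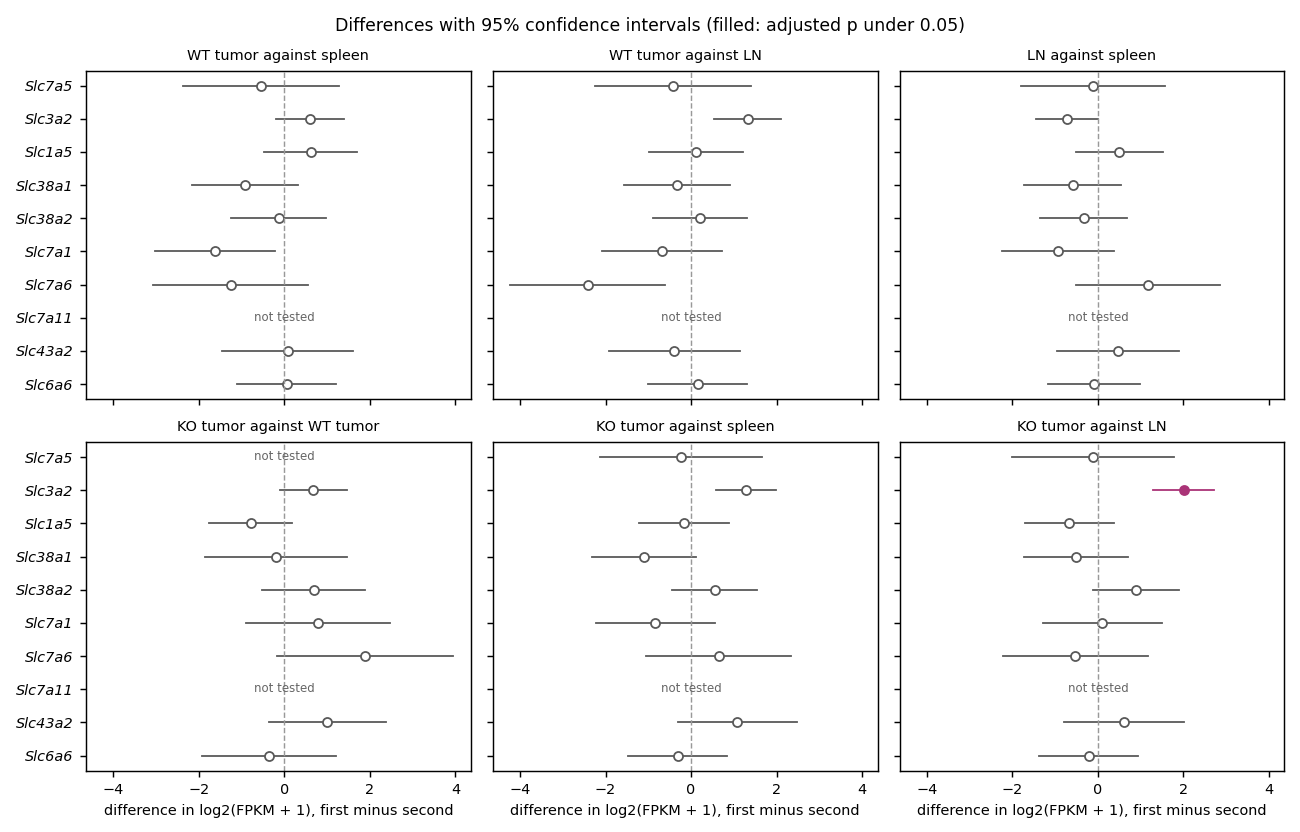
Differences in log2(FPKM + 1) of each transporter in the 6 comparisons, first group minus second (horizontal axis); circles are limma estimates, lines are 95% confidence intervals, and a filled circle marks an adjusted p under 0.05. The only filled circle is Slc3a2 in KO tumor against LN, at 2.0 with an interval of 1.3 to 2.71.

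Slc3a2, the heavy chain (chr19:8706882-8723369, minus strand, GRCm38), had 57.8, 71.9, 70.6 and 72.7 FPKM in spleen 1 to 4 and 25.5, 38.9, 61.0 and 45.3 FPKM in LN 1 to 4. WT tumor 2, 3 and 4 had 133, 66.1 and 126 FPKM, and KO tumor 1, 2 and 3 had 150, 195 and 157 FPKM. All KO tumor libraries lay above all others. WT tumor lay above LN throughout and overlapped spleen through WT tumor 3. KO tumor exceeded LN by 2.0 ± 0.33 on the log2(FPKM + 1) scale (SE, 4.01-fold, 95% interval 2.46 to 6.53, limma adjusted p = 0.00234), with 3 of 3 KO tumor libraries above 4 of 4 LN libraries. It passed in all 13 alternatives, with adjusted p of 0.000786 to 0.0192.

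The neighbouring differences of Slc3a2 did not pass. KO tumor against spleen was 1.28 ± 0.33 (2.43-fold, interval 1.49 to 3.96, limma adjusted p = 0.0510), without overlap, and passed in 2 of 13 alternatives (adjusted p 0.0371 to 0.196): the libraries scaled to their protein-coding total, and the 2 groups alone. WT tumor against LN was 1.33 ± 0.37 (2.51-fold, interval 1.45 to 4.32, limma adjusted p = 0.0719), without overlap. It passed in 2 of 14 alternatives (adjusted p 0.0374 to 0.214), with all 14 libraries in the fit and without WT tumor 3, the lowest WT tumor library. WT tumor against spleen was 0.60 ± 0.37 (limma adjusted p = 0.501). KO tumor against WT tumor was 0.68 ± 0.35 (1.60-fold, interval 0.93 to 2.75, limma adjusted p = 0.658) although the libraries did not overlap, and LN against spleen was −0.72 ± 0.34 (limma adjusted p = 0.486). In the order KO tumor, WT tumor, spleen, LN, only the first step had no overlap, and none of the 3 steps passed the test. The comparisons share libraries, KO tumor and LN among them, and are not independent.

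Markers of other cells moved with some of these differences. Of the 10 macrophage or monocyte markers 7 to 9 reached 1 FPKM in each KO tumor library and 1 to 3 in each LN library, and the mean score over the list, in log2(FPKM + 1), was 2.73 higher in KO tumor (exact permutation p = 0.0571, two-sided, the smallest that 3 against 4 libraries allow, and adjusted p 0.143 over 10 marker lists). Tyrobp, a signalling adaptor of myeloid cells, averaged 129 ± 43.8 FPKM (SD, n = 3) in KO tumor, 3.02 ± 2.99 in LN, 3.48 ± 2.83 in WT tumor and 175 ± 40.4 (n = 4) in spleen. Fcer1g, another such adaptor, averaged 96.9 ± 47.2 in KO tumor, 0.202 ± 0.112 in LN, 26.9 ± 44.3 in WT tumor and 113 ± 79.5 in spleen. Slc3a2 averaged 108 ± 36.8 FPKM in WT tumor, where 0 to 4 of these markers reached 1 FPKM and Cd68 and Adgre1 were listed at 0, and 68.2 ± 7.04 in spleen, where 7 to 10 did. The list's part in the Slc3a2 difference was not tested. Helper T cell markers summed to 154 to 277 FPKM in KO tumor, 133 to 207 in WT tumor, 13.4 to 51.2 in LN and 9.82 to 41.5 in spleen, with Il21 listed at 0 in LN and both tumor groups and Il4 in spleen, LN and WT tumor, and their part was not tested either. Of 7 melanoma markers, Mlana, Tyrp1, Dct and Sox10 were listed at 0 in every library of all groups, and the list summed to at most 1.73 FPKM in WT tumor and 0.633 in KO tumor. The scores of the other lists in KO tumor minus LN were 0.81 for Treg, 1.25 for CD8 T or NK cell and 1.23 for helper T cell markers (each with that same p), 2.60 for erythroid (0.171), 0.35 for dendritic cell (0.343), 0.10 for B cell (0.8), −0.01 for fibroblast or endothelial (1.0), −0.03 for neutrophil (0.914) and −0.11 for melanoma markers (0.286), all by exact permutation tests. Erythroid markers summed to 2980 to 7080 FPKM in spleen and 79 to 1190 in LN. In the tumor groups they summed to 225 to 11900 (WT tumor) and 63.3 to 16400 (KO tumor). The B cell score averaged 3.57 in spleen, 1.4 in LN, 1.3 in WT tumor and 1.5 in KO tumor. The part of these lists in the Slc3a2 differences was not tested. In bulk RNA, fewer cells of a type and less RNA per cell cannot be told apart.

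Slc7a5 (chr8:121881150-121907694, minus strand) had 0.151, 0, 4.88 and 8.47 FPKM in spleen 1 to 4. There spleen 2, with no reads, allows up to 0.0697 FPKM by the limit of 3 reads, for counting error only and at the length of the longest transcript. It had 0.747, 3.27, 0.555 and 2.94 FPKM in LN, 2.83, 0.550 and 0.217 in WT tumor, and 0.254, 7.25 and 0.348 in KO tumor. Every group held a library under 1 FPKM and one at 2.8 FPKM or more, so all groups overlapped. Its differences ran from −0.55 ± 0.85 (WT tumor against spleen) to −0.11 ± 0.89 (KO tumor against LN), and all 5 limma adjusted p were 0.83 or more. KO tumor against WT tumor was not testable in the filtered fit of the tumor groups. It gave 0.32 in an exact permutation test (p = 0.8, adjusted p 0.8, where 3 against 3 libraries cannot go below 0.1). Limma adjusted p was 0.916 without the filter and 0.965 with all 14 libraries in the fit.

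Slc7a6 (chr8:106168857-106198706, plus strand), the y+LAT2 light chain, had 1.13, 3.27, 18.4 and 2.53 FPKM in spleen and 15.4, 10.9, 6.66 and 9.62 in LN. Among tumor libraries, those of WT mice had 5.89, 0 and 0.351 FPKM, those of KO mice 3.37, 9.03 and 9.80. All WT tumor libraries lay below all LN libraries, with a difference of −2.42 ± 0.84 (interval −4.23 to −0.60, limma adjusted p = 0.167). KO tumor against WT tumor was 1.89 ± 0.92 (limma adjusted p = 0.630), with overlap, since WT tumor 2 lay above KO tumor 1.

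Slc7a11 (chr3:49892526-50443614, minus strand) had 0.177 to 0.801 FPKM in spleen, 0.341 to 0.872 in LN, 0.385 to 0.795 in WT tumor, and 0.436, 0.457 and 1.63 in KO tumor. KO tumor 3 was the only library at 1 FPKM. These levels correspond to about 22 to 257 reads a library at the length of its longest transcript (9223 bases) and the estimated depth. They are above the limit of 3 reads at that length, and shorter transcripts would mean fewer reads. No fit with the 1 FPKM filter held the gene. Exact permutation tests of its log2(FPKM + 1) gave differences of −0.13 to 0.28 with p of 0.314 to 0.8, all 0.8 after adjustment over 7 tests. Fits without the filter gave limma adjusted p of 0.759 or more.

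Over 6 genes for light chains that pair with Slc3a2 (Slc7a5, Slc7a6, Slc7a7, Slc7a8, Slc7a10 and Slc7a11), the summed level was 4.07 to 29.9 FPKM in spleen, 7.98 to 17.1 in LN, 9.73, 0.964 and 0.991 in WT tumor 2, 3 and 4, and 4.20, 16.8 and 12.8 in KO tumor 1, 2 and 3. The sum was at most 29.9 FPKM in any library, and Slc3a2 was above it in all 14. Slc3a2 per unit of this sum was 1.50 to 7.65 in LN, 1.93 to 17.6 in spleen, 11.7 to 35.8 in KO tumor and 13.7 to 127 in WT tumor. The tumor libraries all had a higher ratio than the LN libraries, while spleen 2 overlapped them. In LN the leading light chain was Slc7a6 in every library. In spleen 1 it was Slc7a10, which carries small neutral amino acids, at 25.0 FPKM, and Slc7a10 averaged 7.41 ± 11.9 FPKM (SD, n = 4) in spleen but was listed at 0 in WT tumor.

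**Figure D3:**
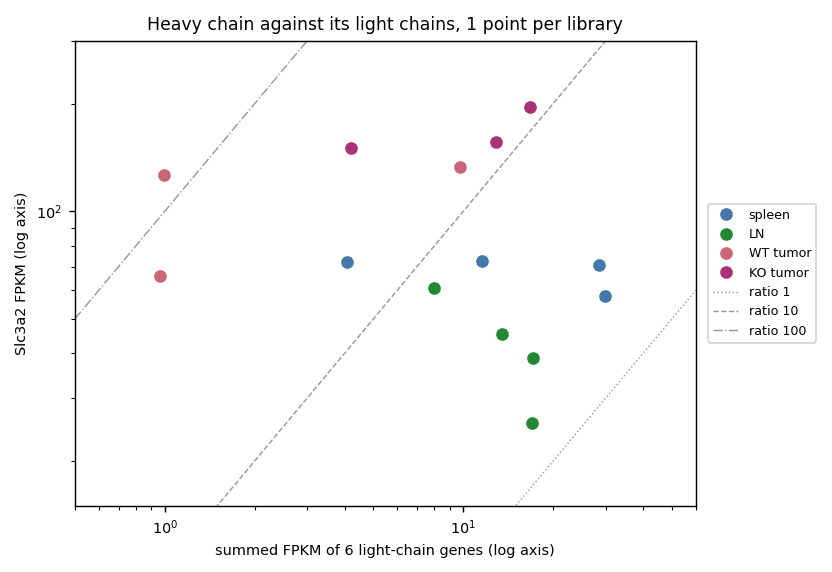
Slc3a2 FPKM (vertical, log axis) against the summed FPKM of 6 light-chain genes (horizontal, log axis), with 1 point per library coloured by group and lines at ratios of 1, 10 and 100. LN libraries lie between the lines of 1 and 10 (1.50 to 7.65) and all tumor libraries above the line of 10.

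As a share of the summed FPKM of the 10 transporters, Slc3a2 took 17.7 to 38.8% in LN, 30.5 to 45.8% in spleen, 56.7, 35.4 and 58.1% in WT tumor 2, 3 and 4, and 59.0, 64.9 and 55.9% in KO tumor 1, 2 and 3. The sum itself was 143 to 172 FPKM in LN, 126 to 238 in spleen, 187 to 235 in WT tumor and 255 to 301 in KO tumor. The KO tumor libraries had the highest sums of all 14. Without Slc3a2, the other 9 transporters summed to 104.5 to 123.8 FPKM in KO tumor, 90.9 to 121 in WT tumor, 96.4 to 133 in LN and 68.3 to 166 in spleen, and all groups overlapped.

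The glutamine carrier Slc1a5 (chr7:16781340-16798274, plus strand) had 10.9, 37.0, 38.7 and 73.5 FPKM in spleen and 56.9, 53.9, 37.6 and 42.9 in LN. Among tumor libraries, those of WT mice had 53.9, 48.8 and 51.1 FPKM, those of KO mice 40.3, 20.7 and 30.2. The WT tumor libraries lay close together and all above KO tumor, with a difference of −0.78 ± 0.43 for KO against WT tumor (0.58-fold, interval 0.30 to 1.14, limma adjusted p = 0.698). Its other differences were −0.67 to 0.62, and those groups overlapped.

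Slc38a2 (chr15:96687392-96699730, minus strand) had 27.2, 28.0, 18.8 and 41.3 FPKM in spleen and 13.2, 37.6, 21.7 and 20.6 in LN. Among tumor libraries, those of WT mice had 14.9, 51.6 and 20.5 FPKM, those of KO mice 41.9, 38.0 and 44.0. KO tumor lay above LN without overlap (0.89 ± 0.47, 1.85-fold, interval 0.93 to 3.70, limma adjusted p = 0.457). WT tumor held both a low and the highest library of the 14 and overlapped every group.

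Its relative Slc38a1 (chr15:96571418-96642913, minus strand) was highest in spleen, with 7.17, 6.95, 5.85 and 8.11 FPKM, and had 3.88, 3.96, 9.46 and 2.08 in LN. Among tumor libraries, those of WT mice had 2.08, 4.42 and 3.45 FPKM, those of KO mice 1.02, 4.07 and 3.94. Both tumor groups lay below spleen without overlap, by −0.92 ± 0.57 in WT tumor (limma adjusted p = 0.511) and −1.11 ± 0.57 in KO tumor (limma adjusted p = 0.414). LN 3, at 9.46 FPKM, was the highest library of all.

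The arginine and lysine carrier Slc7a1 (chr5:148327410-148399904, minus strand) had 7.48, 24.0, 8.00 and 12 FPKM in spleen and 7.50, 9.61, 1.31 and 7.70 in LN. Among tumor libraries, those of WT mice had 4.32, 3.16 and 2.06 FPKM, those of KO mice 2.52, 7.68 and 10.3. WT tumor lay below spleen without overlap, by −1.62 ± 0.66 (0.33-fold, interval 0.12 to 0.86, limma adjusted p = 0.278). KO tumor overlapped every other group.

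Slc43a2 (LAT4, chr11:75531694-75577575, plus strand) had 3.19, 1.38, 8.94 and 15.5 FPKM in spleen and 11.2, 6.02, 13.9 and 3.76 in LN. Among tumor libraries, those of WT mice had 6.94, 6.88 and 3.85 FPKM, those of KO mice 12, 10.6 and 15.2. KO tumor lay above WT tumor without overlap (1.0 ± 0.61, 2.0-fold, interval 0.78 to 5.16, limma adjusted p = 0.729). In GENCODE M21 its exons share 922 bases with the antisense gene Gm45606, which was not among the genes analysed, and the labels name no strand-specific counting, so reads of the pair cannot be told apart.

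The taurine carrier Slc6a6 (chr6:91684053-91759066, plus strand) had the narrowest range of estimates among the 8 transporters tested in all comparisons. It had 10.9, 10.7, 6.42 and 3.93 FPKM in spleen, 8.78, 7.68, 4.49 and 7.30 in LN, 10.1, 5.08 and 8.97 in WT tumor, and 2.71, 8.13 and 8.31 in KO tumor. All groups overlapped, its 6 differences lay between −0.37 and 0.15, and the widest interval was −1.93 to 1.20. It shares 117 exon bases with Gm44981, annotated on the opposite strand, with the same limit.

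Groups without overlap were more frequent than calls. For all tested genes the share without overlap was 11.5% in WT tumor against spleen, 17.0% in WT tumor against LN, 7.87% in LN against spleen, 14.5% in KO tumor against WT tumor, 13.4% in KO tumor against spleen and 16.9% in KO tumor against LN. Among the transporters it was 2 of 9 (both lower in WT tumor), 2 of 9 (Slc3a2 higher and Slc7a6 lower), 0 of 9, 3 of 8 (Slc3a2 and Slc43a2 higher, Slc1a5 lower), 2 of 9 (Slc3a2 higher and Slc38a1 lower) and 2 of 9 (Slc3a2 and Slc38a2 higher), in the same order. The median difference of the tested transporters was −0.13, −0.33, −0.12, 0.68, −0.17 and −0.11, beside medians of −0.07, −0.12, 0.02, 0.07, 0.02 and −0.01 over all tested genes. In KO tumor against WT tumor 5 of the 8 had a positive estimate, although none passed. The SD between libraries of a group, in log2(FPKM + 1), was 0.39 for Slc3a2, 0.56 to 0.83 for Slc38a1, Slc6a6, Slc38a2, Slc1a5, Slc7a1 and Slc43a2, 1.09 for Slc7a6 and 1.27 for Slc7a5, where the median tested gene had 0.88.

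The genes with a pattern most like that of Slc3a2 were sought among 5898 genes with a mean of at least 5 FPKM, by the root mean square difference of log2(FPKM + 1) over the 14 libraries after subtracting each gene's mean. The nearest were Pkm (0.40), the pyruvate kinase of glycolysis, Ccnl1 (0.42), a cyclin tied to splicing, and Sdf4 (0.43), a calcium-binding protein of the Golgi, where Slc3a2 itself varied by 0.81. Pkm averaged 172 FPKM in LN, 269 in spleen, 593 in WT tumor and 605 in KO tumor. Among the other transporters the nearest to Slc3a2 was Slc38a2, at 0.81, a distance as large as the variation of Slc3a2 itself. For Slc1a5 the nearest was Rsl24d1 (0.37), for Slc38a2 Aplp2 (0.42), for Slc38a1 Rbm5 (0.43), for Slc43a2 N4bp1 (0.42), for Slc6a6 Lasp1 (0.36), for Slc7a1 Pea15a (0.60), for Slc7a5 Unc119b (0.55) and for Slc7a6 Hist2h2ac (0.68). Slc7a11 varied by only 0.28, and its nearest, Chchd2 (0.19), is one of the genes that hardly varied.

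**Figure D4:**
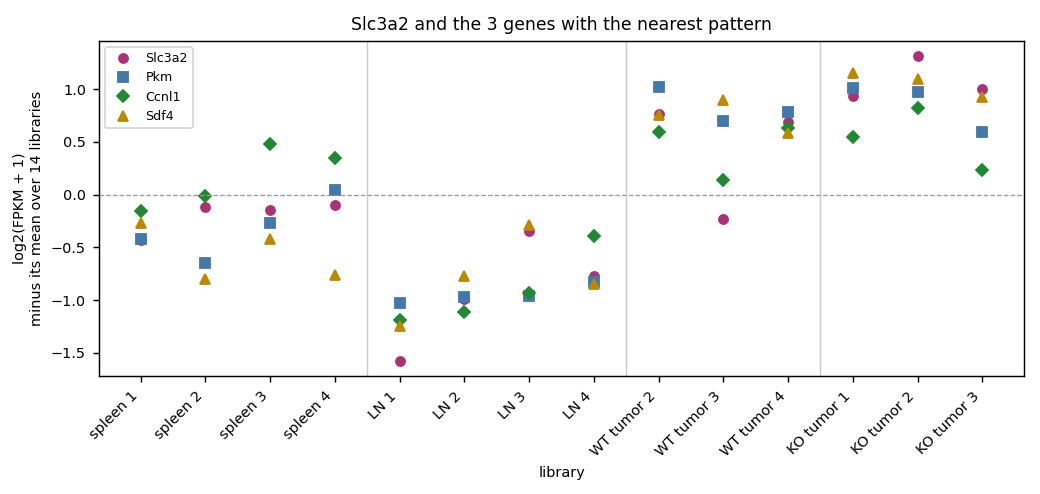
Slc3a2 and its 3 nearest genes in each of the 14 libraries, as log2(FPKM + 1) minus the gene's mean over all libraries (vertical axis); symbols are genes and vertical lines part the groups. All 4 genes are below their means in LN, and all but Slc3a2 in WT tumor 3 are above them in the tumor libraries.

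The other genes of amino acid transport and metabolism were grouped in 8 lists. Of 19 further plasma-membrane transporters in the table, 13 stayed under 1 FPKM in every library and 2 (Slc7a10 and Slc43a1) reached it in 3 or more, and none passed in any comparison. Of 11 lysosomal and other intracellular carriers 9 were tested, and 1 rose: Slc15a3, a lysosomal carrier of histidine and small peptides. Slc15a3 had 0 to 1.79 FPKM in spleen, 0.0200 to 7.87 in LN, 80.0, 12.4 and 16.9 in WT tumor, and 24.9, 14.6 and 42.7 in KO tumor. All 6 tumor libraries lay above all 8 others. It was higher than in spleen by 4.34 ± 0.91 in WT tumor (limma adjusted p = 0.0252) and by 4.30 ± 0.86 in KO tumor (limma adjusted p = 0.0105). The first call was lost in 9 of 14 alternatives (adjusted p 0.0120 to 0.1), among them those without spleen 1, spleen 2, spleen 4, WT tumor 2 or WT tumor 4, and the second without KO tumor 3 (0.0635), while against LN the estimates were 3.01 ± 0.91 (0.104) and 2.96 ± 0.86 (0.0790).

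In the list of the amino acid response through GCN2 and ATF4, 13 or 15 of 20 genes were tested, depending on the fit. In KO tumor against LN 3 rose (Atf4, Cebpb and Ppp1r15a) and 0 fell, in KO tumor against spleen Atf4 alone rose, and in WT tumor against LN Ppp1r15a alone. Of all tested genes 3.42%, 2.80% and 3.04% passed in these comparisons, in the same order. No gene of the list passed in WT tumor against spleen, LN against spleen or KO tumor against WT tumor. The list's medians in these 6 comparisons were 0.63, 0.83, 0.34, 0.58, 0.06 and 0.15, beside −0.01, 0.02, −0.12, −0.07, 0.02 and 0.07 over all tested genes. The 15 genes of the fits with KO tumor included Trib3 and Stc2, which reached 1 FPKM in tumor libraries only. These genes passed the filter through tumor, which raises the medians of KO tumor against LN and spleen. Those medians are thus not comparable with the ones of WT tumor, over 13 genes. Genes of the list went both ways. In WT tumor against spleen Ddit3 was 2.23 ± 0.96 (limma adjusted p = 0.311) and Shmt2 was −2.195 ± 0.68 (limma adjusted p = 0.136).

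Atf4 had 44.5, 17.9, 19.2 and 19.96 FPKM in spleen, 27.9, 21.6, 21.8 and 27.9 in LN, 133, 73.9 and 53.0 in WT tumor, and 133, 62.6 and 86.1 in KO tumor. All 6 tumor libraries lay above all 8 lymphoid libraries. KO tumor exceeded LN by 1.82 ± 0.42 (limma adjusted p = 0.0221, lost in 4 of 13 alternatives: without LN 2, LN 3, KO tumor 1 or KO tumor 3) and spleen by 1.88 ± 0.42 (0.0208, lost in 5 of 13: in the 2 groups alone and without spleen 2, spleen 3, KO tumor 1 or KO tumor 3). WT tumor exceeded LN by 1.67 ± 0.44 (0.0601) and spleen by 1.73 ± 0.44 (0.0679). Slc7a11, whose window printed above holds both ATF4 cores, stayed at or under 0.795 FPKM in the WT tumor libraries and had 0.436, 0.457 and 1.63 in KO tumor. In spleen it had 0.177 to 0.801 FPKM and in LN 0.341 to 0.872. Whether the levels of Atf4 and Slc7a11 are linked was not tested.

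Ppp1r15a, which reverses the block of translation by the GCN2 branch, averaged 1.03 ± 1.32 FPKM (SD, n = 4) in LN, 5.81 ± 7.27 (n = 4) in spleen, 20.2 ± 4.52 (n = 3) in WT tumor and 18.0 ± 7.35 (n = 3) in KO tumor. It exceeded LN by 3.57 ± 0.84 in WT tumor (limma adjusted p = 0.0348, lost in 9 of 14 alternatives, those without LN 1, LN 2, LN 4 or any WT tumor library among them) and by 3.36 ± 0.78 in KO tumor (0.0234, lost in 8 of 13, those without LN 1, LN 2, LN 4 or any KO tumor library among them). Cebpb, a partner of ATF4 on response elements, averaged 26.2 ± 10.2 FPKM in KO tumor and 2.85 ± 3.68 in LN (3.26 ± 0.81, limma adjusted p = 0.0338, lost in 8 of 13, those without LN 2, LN 3, LN 4 or any KO tumor library among them). The adjusted p of these 3 calls ran to 0.121, 0.120 and 0.151 over the alternatives.

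Of 7 transcription factors known to act on these transporters, all 7 were tested in KO tumor against spleen or LN and 5 in KO tumor against WT tumor. The remaining comparisons tested 6, since Atf3 did not reach the filter. Hif1a, the oxygen-sensitive subunit of the hypoxia factor, rose in all 4 comparisons of tumor with lymphoid tissue. The others passed in none where they were tested. Hif1a had 30.3 to 69.7 FPKM in spleen, 24.0 to 48.8 in LN, 152, 138 and 159 in WT tumor, and 166, 117 and 156 in KO tumor, without overlap between tumor and lymphoid libraries. KO tumor exceeded LN by 1.95 ± 0.34 (limma adjusted p = 0.00315) and WT tumor exceeded LN by 2.0 ± 0.37 (0.00820), and both passed in every alternative. Against spleen the differences were 1.64 ± 0.34 in KO tumor (0.0127, lost without KO tumor 1 or KO tumor 3) and 1.69 ± 0.37 in WT tumor (0.0308, lost in 9 of 14 alternatives, those without spleen 1, spleen 3 or any WT tumor library among them, adjusted p up to 0.0960). KO tumor against WT tumor was −0.05 ± 0.28 (limma adjusted p = 0.982).

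**Figure D5:**
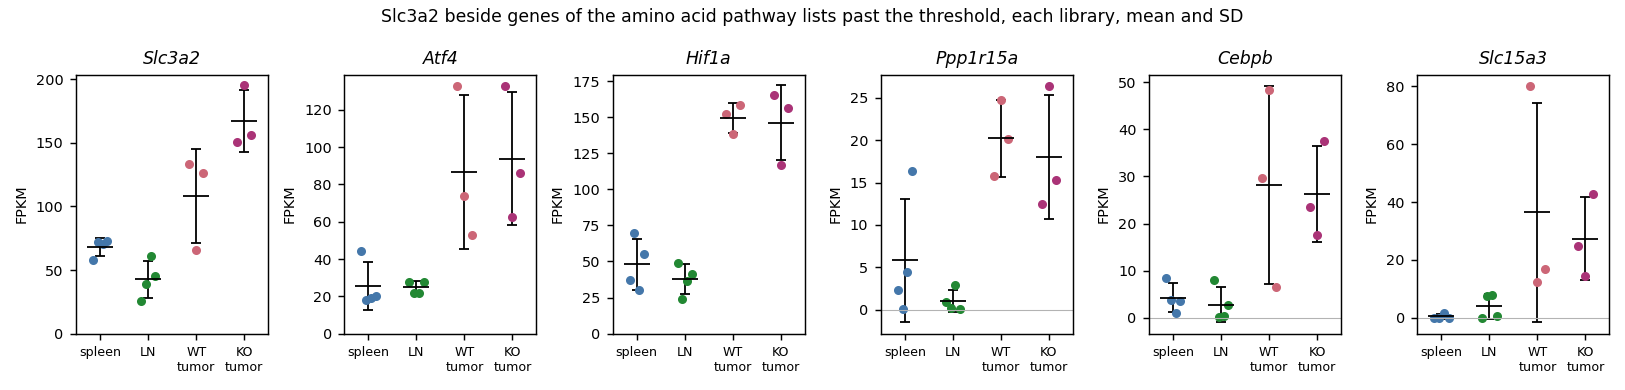
FPKM of Slc3a2, Atf4, Hif1a, Ppp1r15a, Cebpb and Slc15a3 (vertical axes, their own ranges) in the 4 groups; points are libraries and bars the mean and SD. Atf4, Hif1a and Slc15a3 are higher in all 6 tumor libraries than in all 8 lymphoid ones, while Slc3a2 in WT tumor 3 (66.1 FPKM) lies among the spleen libraries.

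In the list of amino acid sensors upstream of mTORC1, 25 of 30 genes were in the table and 17 to 23 tested. A single one fell: Mlst8, a subunit of mTOR complexes, in WT tumor against spleen (0.722 ± 1.23 against 10.2 ± 5.45 FPKM, −2.82 ± 0.67, limma adjusted p = 0.0477, lost in 10 of 14 alternatives, up to 0.155, those without any 1 spleen library, WT tumor 2 or WT tumor 3 among them). No gene passed among 20 cytosolic aminoacyl-tRNA synthetases, 12 to 14 genes of glutamine and branched-chain amino acid metabolism, or 7 to 8 of cysteine, taurine and glutathione metabolism. The gene with the smallest p among the synthetases was Yars in WT tumor against spleen (−2.56 ± 0.81, limma adjusted p = 0.143). Among the glutamine and branched-chain genes it was Bcat2, the mitochondrial transaminase of branched-chain amino acids, in KO tumor against WT tumor (15.2 ± 3.22 against 0.503 ± 0.808 FPKM, 3.54 ± 0.72, limma adjusted p = 0.126). Among the last list it was Csad, which makes a precursor of taurine, in KO tumor against spleen (3.55 ± 4.75 against 12.3 ± 4.93 FPKM, −1.99 ± 0.67, limma adjusted p = 0.149).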

How the data were processed

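The authors deposited FPKM values for 22255 Ensembl genes in each of 14 libraries. Per the submitters' processing notes, the genome was mm10 (GRCm38) and the tools were Cufflinks 2.2.1, Cuffdiff, DESeq2, Bowtie2 2.2.9, TopHat2 2.1.1 and Trimmomatic, listed without roles. Positions and exon overlaps came from GENCODE M21, which 22196 identifiers matched, and promoter windows from RefSeq (GRCm38.p6). Genes with at least 1 FPKM in at least 3 libraries of a fit were tested with robust limma-trend (limma 3.58.1, R 4.3.3) on log2(FPKM + 1), a scale that understates differences of low genes. The fits held spleen, LN and WT tumor (9616 genes), both tumor groups (8210 genes), and all libraries for KO tumor against spleen or LN (10147 genes). Intervals are 95%. Reads per library came from the steps of low FPKM values (241 to 342 values in single-transcript genes of at least 0.8 kb, up to 20 reads, 93.2 to 96.1% whole within 0.1), and FPKM totals were 492605 to 595391. The model was run on simulated data, drawn as independent normal values on the log2 scale from each gene's mean and SD. The outcome is not given here, so no result rests on it. The 10 transporters, the 8 pathway lists and the 10 marker lists were chosen with earlier results of these data known. Named beside the transporters were Cd36, Foxp3, up to 3 pathway genes past the threshold per list or the one with the smallest p, the 3 nearest genes by pattern, and the highest genes of marker lists that moved. Alternatives were a pseudocount of 0.1, no filter, scaling to the protein-coding total, array weights, other sets of libraries in the fit, a replicate block and leaving out each library. WT tumor libraries are numbered from 2 in the labels.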

Additional observations from a re-analysis of the deposited data

Results flagged for a closer look

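In 20 groups of 4 libraries (10 transporters in spleen and in LN, on the log2(FPKM + 1) scale), Dixon's ratio, the gap between an extreme library and its neighbour over the group's range, passed its 95% critical value in 2, where chance gives about 1 in 20. Slc3a2 in spleen 1, at 57.8 FPKM, was below the other 3 spleen libraries (70.6 to 72.7 FPKM), with a ratio of 0.868. The ratio was high because those 3 lay close together, while the gap was small (5.876 against 6.161 to 6.204 in log2(FPKM + 1)). Slc7a1 in LN 3, at 1.31 FPKM, was far below the other 3 LN libraries (7.50 to 9.61 FPKM), with a ratio of 0.855.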

How the results depend on the processing

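Of the alternative values for single transporters, 663 kept their direction and side of the threshold, 4 newly passed (all of them Slc3a2) and 50 changed sign. None of the 636 alternative values of the other transporters passed. Slc3a2 in KO tumor against LN passed under every alternative run.

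The count of transporters past the threshold rose from 0 to 1 (Slc3a2) in KO tumor against spleen after scaling to the protein-coding total and with the 2 groups only, and in WT tumor against LN with all 14 libraries in one fit and without WT tumor 3 (0 to 1 over the libraries left out). The count of all genes fell from 183 in WT tumor against spleen to 112 without a filter, 107 with array weights and 87 with the 2 groups only. It fell from 48 to 16 in LN against spleen and from 23 to 0 in KO tumor against WT tumor without a filter, rose from 23 to 60 there with all 14 libraries, and fell from 284 to 185 in KO tumor against spleen with the 2 groups only.

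With single libraries left out, counts of all genes ran from 82 to 173 in WT tumor against spleen, 183 to 268 in WT tumor against LN, 13 to 35 in LN against spleen, 9 to 15 in KO tumor against WT tumor, 158 to 269 in KO tumor against spleen and 203 to 267 in KO tumor against LN. The count moved by over 1.5 times without any 1 of the WT tumor libraries (WT tumor against spleen), without LN 2 or WT tumor 3 (WT tumor against LN), without spleen 2, spleen 4 or any LN library (LN against spleen), without any tumor library (KO tumor against WT tumor), without any KO tumor library (KO tumor against spleen), and without KO tumor 1 or KO tumor 2 (KO tumor against LN). The differences of transporters that changed sign so had these ranges. In WT tumor against spleen, Slc7a5 ran from -1.049 to 0.032, Slc38a2 from -0.638 to 0.227, Slc43a2 from -0.394 to 0.538 and Slc6a6 from -0.205 to 0.318. In WT tumor against LN, Slc38a2 ran from -0.302 to 0.563 and Slc6a6 from -0.022 to 0.416. In LN against spleen, Slc7a5 ran from -0.622 to 0.459, Slc1a5 from -0.002 to 0.878, Slc43a2 from -0.001 to 0.930 and Slc6a6 from -0.357 to 0.076. In KO tumor against WT tumor, Slc38a1 ran from -0.413 to 0.252 and Slc6a6 from -0.629 to 0.073. In KO tumor against spleen, Slc7a5 ran from -1.122 to 0.348, Slc1a5 from -0.669 to 0.211 and Slc6a6 from -0.570 to 0.127. In KO tumor against LN, Slc7a5 ran from -1.0 to 0.359, Slc7a1 from -0.394 to 0.602 and Slc6a6 from -0.439 to 0.226.

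A pseudocount of 0.1 turned Slc7a5 to 0.603 in LN against spleen and 0.049 in KO tumor against spleen. Scaling turned Slc6a6 to -0.014 in WT tumor against spleen and Slc1a5 to -0.008 in WT tumor against LN, while the median over all tested genes shifted by -0.0957 to 0.0909.

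Libraries with the same number did not deviate together (correlations across genes of -0.028 to 0.030). This cannot tell whether they came from the same mouse, since noise between libraries could hide a shared deviation. With the replicate block the counts of all genes were 89 for WT tumor against spleen, 186 for the same against LN, 20 for LN against spleen and 6 for KO tumor against WT tumor, and the block turned Slc1a5 to -0.092 in WT tumor against LN, Slc38a1 to 0.293 and Slc6a6 to 0.167 in KO tumor against WT tumor, and Slc7a5 to 0.112 in KO tumor against LN. The causes of these shifts were not tested.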
